A study of Mus musculus with 9 samples.

Results

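Amoxicillin and tylosin were compared with each other directly in mouse liver, 3 arrays for each antibiotic, with the 3 control arrays of the same series given only as levels beside the named genes. Female mice of the strain labelled C57BL6J were exposed to 1 of the antibiotics, given in the water, in 3 early-life pulses. These were on days 10 to 15, 28 to 31 and 37 to 40. The first pulse came before weaning, and the study describes the earliest dose as reaching the pups through the mother's milk. The water held amoxicillin at 0.167 mg/ml or tylosin at 0.333 mg/ml. The doses aimed at, from an estimated water intake, were 25 and 50 mg per kg a day, so drug and dose differed together. The study kept all mice on high-fat chow after the pulses, controls included. Livers were taken long after the last pulse: the sample labels give an age of 24 weeks and the protocol text gives 22 weeks. Litters stayed within 1 treatment and were housed together, and the litter of each array is not in the labels, so litter and cage cannot be told apart from the antibiotic. Replicates are only numbered in the labels, so p-values measure the spread between these samples.

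Amoxicillin is a beta-lactam that blocks the building of the bacterial cell wall, and tylosin is a macrolide that binds the bacterial ribosome. The liver receives blood from the gut through the portal vein and turns cholesterol into bile acids, which circulate between liver and intestine. It also makes cholesterol and fatty acids under the control of the SREBP transcription factors, conjugates and exports foreign compounds, and secretes acute phase proteins when exposed to inflammatory signals.

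For each gene the probe set with the highest mean over the 9 arrays was taken, and a gene was kept where that probe set had a mean log2 value over 6. Of 18193 genes with a single symbol, 7524 were kept (41.4%). Values are log2 expression values, and every difference below is the mean of the 3 tylosin arrays minus the mean of the 3 amoxicillin arrays on that scale. A gene was called where limma gave an unadjusted p under 0.01 and the difference was over 0.5 in size. In tissue RNA, fewer cells of a type and less RNA per cell cannot be told apart.

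The livers of both groups were close over most genes. The median difference over the 7524 genes was 0.01, the middle 50% of differences ran from -0.06 to 0.09, and 92.1% lay within 0.25 of 0. With tylosin 9 genes were called higher, which was 0.12% of the genes kept, and 4 were called lower, which was 0.0532%. Over all 45037 probe sets, 20 were called higher (0.0444%) and 18 lower (0.04%). After Benjamini-Hochberg adjustment over all probe sets limma called none, and the smallest adjusted p was 1. At an unadjusted limma p under 0.05 there were 234 of the 7524 genes, and at p under 0.01, with any size of difference, 31. Both shares were smaller than the p threshold itself, which is the share expected with no difference. The 3 tylosin values lay wholly above the 3 amoxicillin values in 293 genes (3.89%) and wholly below in 188 (2.5%).

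**Figure D1:**
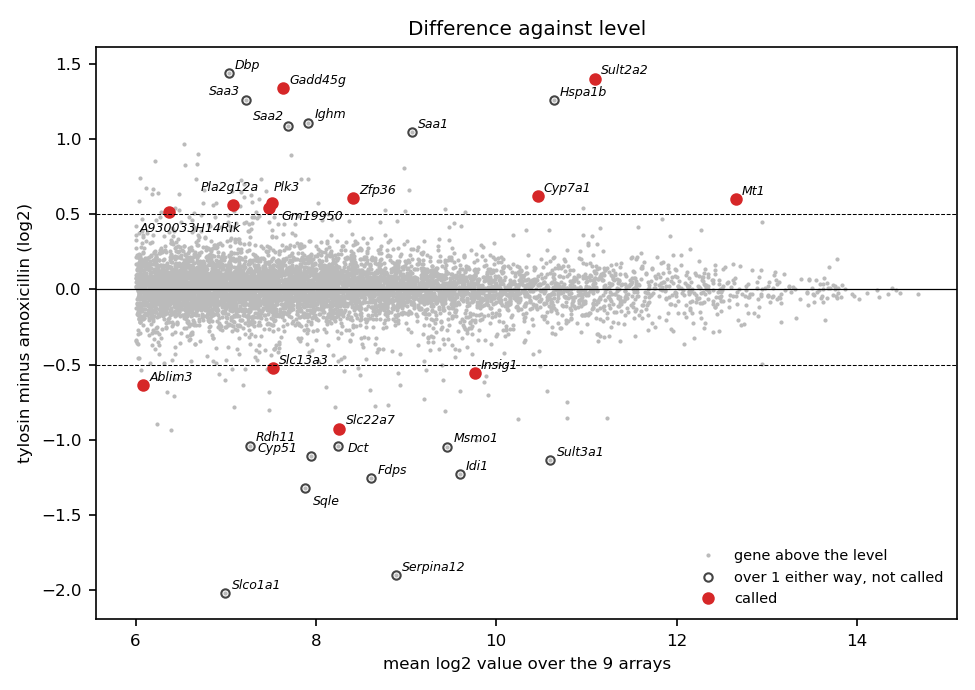
The horizontal axis gives the mean log2 value of each gene over the 9 arrays and the vertical axis the difference, tylosin minus amoxicillin, on the log2 scale; red points are the 13 called genes, open circles the other genes that differed by over 1, and dashed lines mark 0.5 either way. The genes crowd around 0 at every level, with 10 lower and 8 higher by over 1.

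Arrays differed within groups in ways the treatment labels do not describe. Hepatocyte markers had nearly the same summed level in all 9 arrays, 16.74 to 16.78, with albumin between 14.64 and 14.71. Albumin reached the highest value of all probe sets, 14.71, and the brightest markers weighed most in the sum. The sum therefore cannot show whether hepatocyte content was the same. Tat, a dimmer marker of the list, ran from 11.46 to 12.48 over the 9 arrays. Several markers of intestinal mucosa and smooth muscle stood high in 1 array of each group, amoxicillin replicate 1 and tylosin replicate 2. Reg3b, an antibacterial lectin of the intestine, was at 10.18 and 9.72 in that pair, at 7.75 in tylosin replicate 1 and between 2.67 and 3.15 in the other 6 arrays. Acta2, smooth muscle actin, was at 8.05 and 8.14 in the same pair and between 4.31 and 5.51 elsewhere. Not all markers of these lists did so. Fabp2 was at 11.03 and 11.13 in the pair and at 11.62 in amoxicillin replicate 3, and Cdx1, Lmod1 and Synpo2 varied little. Tylosin replicate 3 stood apart in some macrophage genes. There Marco, a scavenger receptor, was at 10.95 against 5.81 to 8.67 in the others, while Clec4f, a marker of resident Kupffer cells, was at 7.50 against 9.20 to 9.66. Of the 10 macrophage markers, it was the highest of the 6 antibiotic arrays in 6 and the lowest in 2, against 21.2% and 31.3% of all genes. Csf1r, at 10.90 against 10.47 to 11.02 in the others, and C1qa and C1qb did not stand apart. The summed level of all 10 was 13.48 in tylosin replicate 3 and 12.97 and 12.77 in the other tylosin arrays. It was 12.56 to 13.13 with amoxicillin and 12.59 to 13.15 in the controls, and none of the 10 was called. None of the 13 intestinal and none of the 8 smooth muscle markers was called either, but only 3 and 2 of them were over the level. A marker high in 1 array of each group could also hardly be called. The summed levels of the 2 lists were 12.06 and 11.96 (intestinal) and 9.37 and 9.56 (smooth muscle) in the pair. In the other arrays they were at most 11.75 and 7.99. Fabp2, the brightest intestinal marker, weighed most in the intestinal sum. The part of these markers in the results below was not tested, but leaving out both amoxicillin replicate 1 and tylosin replicate 2 gave 19 calls higher and 3 lower and kept 3 of the 13 genes.

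**Figure D2:**
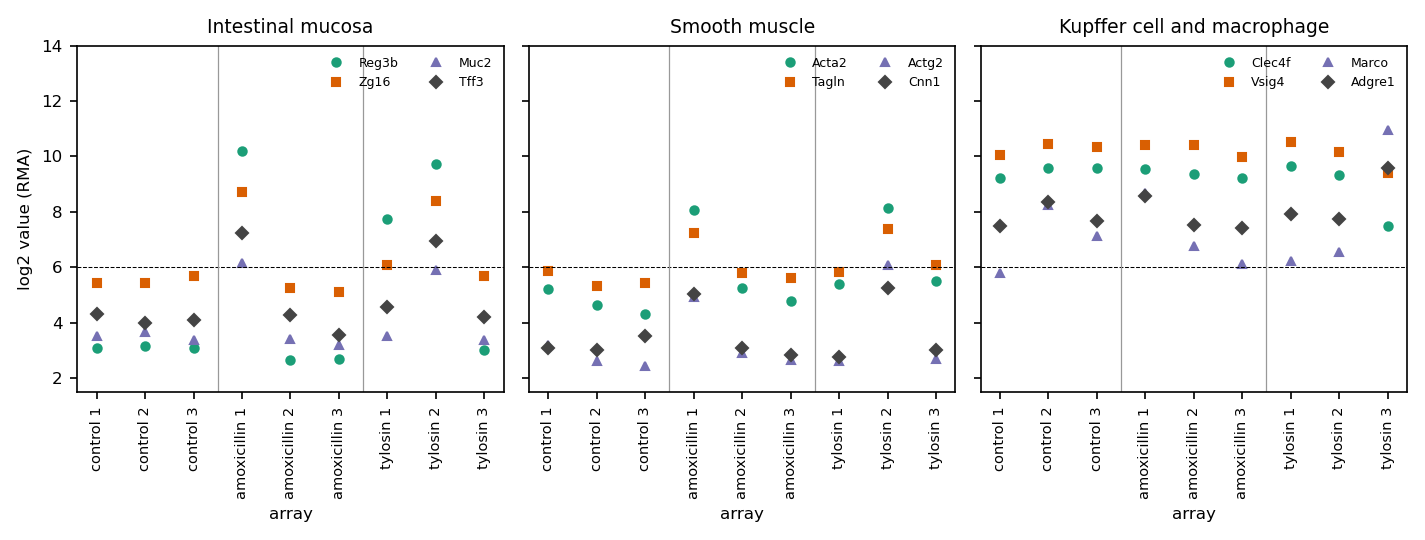
Log2 values of marker genes of intestinal mucosa, smooth muscle and Kupffer cells or macrophages (vertical axis) in each of the 9 arrays (horizontal axis), 1 point per gene and array, with a dashed line at the level of 6 used as filter. Amoxicillin 1 and tylosin 2 are high in the intestinal and muscle markers drawn, and tylosin 3 is high in Marco and low in Clec4f.

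Among the genes called higher with tylosin, Sult2a2 and Gadd45g differed most. Sult2a2, a sulfotransferase that acts on hydroxysteroids and bile acids, was at 9.54, 10.07 and 10.97 with amoxicillin and at 11.59, 11.23 and 11.97 with tylosin. The groups did not overlap, and the control values of 12.32, 10.96 and 11.22 lay beside the tylosin values, with the lowest just under the highest amoxicillin value. The difference was 1.40 ± 0.35 (SE). Gadd45g, a stress sensor of the GADD45 family that acts on growth arrest, was at 6.92, 7.37 and 6.44 with amoxicillin and at 8.44, 7.87 and 8.44 with tylosin. Controls were at 7.81, 7.84 and 7.62, between both groups. Its difference was 1.34 ± 0.25 (SE), and of the 13 called genes it was the 1 that kept its call without each single array, at 1.10 to 1.57. The call of Sult2a2 was lost without amoxicillin replicate 1 or 2 or tylosin replicate 1 or 3, where the difference lay between 1.08 and 1.41.

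The next called genes act in bile acid synthesis and in the response to stress. Cyp7a1, which sets the rate at which cholesterol becomes bile acid, was at 10.15, 10.67 and 10.42 with amoxicillin and at 10.82, 11.25 and 11.02 with tylosin. All 3 tylosin arrays were above every other array, with the controls at 10.35, 9.55 and 9.91. The difference was 0.62 ± 0.16 (SE), and a second, dimmer probe set of Cyp7a1 differed by 0.46 without being called. Zfp36, which encodes a protein that speeds the decay of cytokine mRNAs, was at 8.35, 7.80 and 8.23 with amoxicillin and at 8.49, 8.86 and 8.85 with tylosin. The control arrays spanned both groups, with 8.65, 7.65 and 8.79, and the difference was 0.61 ± 0.17 (SE). Mt1, a metal-binding metallothionein, was at 12.67, 12.52 and 12.10 with amoxicillin and at 12.81, 13.06 and 13.22 with tylosin, a difference of 0.60 ± 0.17 (SE). The highest amoxicillin value was close below the lowest tylosin value, and a dim second probe set of Mt1 was also called, at 1.05. Each of these 3 calls was lost without any 1 of 4 arrays: Cyp7a1 without amoxicillin replicate 1 or 3 or tylosin replicate 2 or 3, and Zfp36 and Mt1 without amoxicillin replicate 2 or 3 or tylosin replicate 2 or 3. The differences in all 6 sets of arrays stayed between 0.49 and 0.75 for Cyp7a1, 0.44 and 0.73 for Zfp36, and 0.43 and 0.72 for Mt1.

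Of the 4 remaining genes called higher, Plk3 and Pla2g12a had the narrower spread. Plk3, a polo-like kinase of stress signalling, was at 7.38, 7.25 and 7.05 with amoxicillin and at 7.94, 7.65 and 7.80 with tylosin, a difference of 0.57 ± 0.12 (SE). Pla2g12a, a secreted phospholipase A2, was at 6.86, 6.70 and 6.90 with amoxicillin and at 7.39, 7.21 and 7.54 with tylosin, a difference of 0.56 ± 0.11 (SE). For both genes the 3 control arrays lay between the groups, at 7.43 to 7.58 for Plk3 and 6.99 to 7.16 for Pla2g12a. Plk3 lost its call only without amoxicillin replicate 3, at 0.48, and Pla2g12a only without tylosin replicate 3, also at 0.48; in both cases the difference fell under the threshold while p stayed under 0.01. The transcripts Gm19950 and A930033H14Rik were higher by 0.54 ± 0.16 and 0.52 ± 0.13 (SE). Gm19950 was at 7.38, 7.04 and 7.29 with amoxicillin and at 7.60, 7.63 and 8.11 with tylosin. A930033H14Rik was at 5.96, 6.08 and 6.23 with amoxicillin and at 6.37, 6.70 and 6.75 with tylosin. The first lost its call without any 1 of the 6 arrays, with differences of 0.38 to 0.63. The second lost it without amoxicillin replicate 1 or 2 or tylosin replicate 2 or 3, with 0.45 to 0.64 over the 6 sets.

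The 4 genes called lower with tylosin were Slc22a7, Ablim3, Insig1 and Slc13a3. Slc22a7, an organic anion transporter of the hepatocyte's blood-facing membrane, was at 8.93, 8.79 and 8.23 with amoxicillin and at 7.78, 8.03 and 7.36 with tylosin. All tylosin values were also below the controls, which were at 8.41, 8.30 and 8.50. The difference was -0.93 ± 0.22 (SE). Ablim3, a protein that binds actin filaments, was at 6.52, 6.02 and 6.51 with amoxicillin and at 5.75, 5.73 and 5.67 with tylosin, a difference of -0.63 ± 0.14 (SE). The 3 tylosin arrays nearly coincided and lay below the controls as well, at 6.02 to 6.29. Insig1, the sterol-dependent anchor that holds the SREBP escort protein in the endoplasmic reticulum, was at 9.88, 10.17 and 9.99 with amoxicillin and at 9.71, 9.17 and 9.48 with tylosin. Its difference was -0.56 ± 0.15 (SE), and the controls reached above and into this range, at 10.29, 9.64 and 9.55. Slc13a3, a sodium-coupled carrier of dicarboxylates, was at 7.73, 7.99 and 7.53 with amoxicillin and at 7.32, 7.37 and 6.99 with tylosin, a difference of -0.52 ± 0.15 (SE). The 3 dimmer probe sets of Slc13a3 were not called, at -0.27, -0.06 and 0.05.

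Calls in this direction also rested on single arrays. Slc22a7 lost its call without amoxicillin replicate 1 or 2 or tylosin replicate 1 or 3, where it stayed between -0.95 and -0.75. Ablim3 lost it without amoxicillin replicate 1 (-0.55) or 3 (-0.56). Insig1 kept its call only without tylosin replicate 1 and Slc13a3 only without amoxicillin replicate 3. Over all 6 sets Insig1 ranged from -0.69 to -0.42 and Slc13a3 from -0.63 to -0.41.

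**Figure D3:**
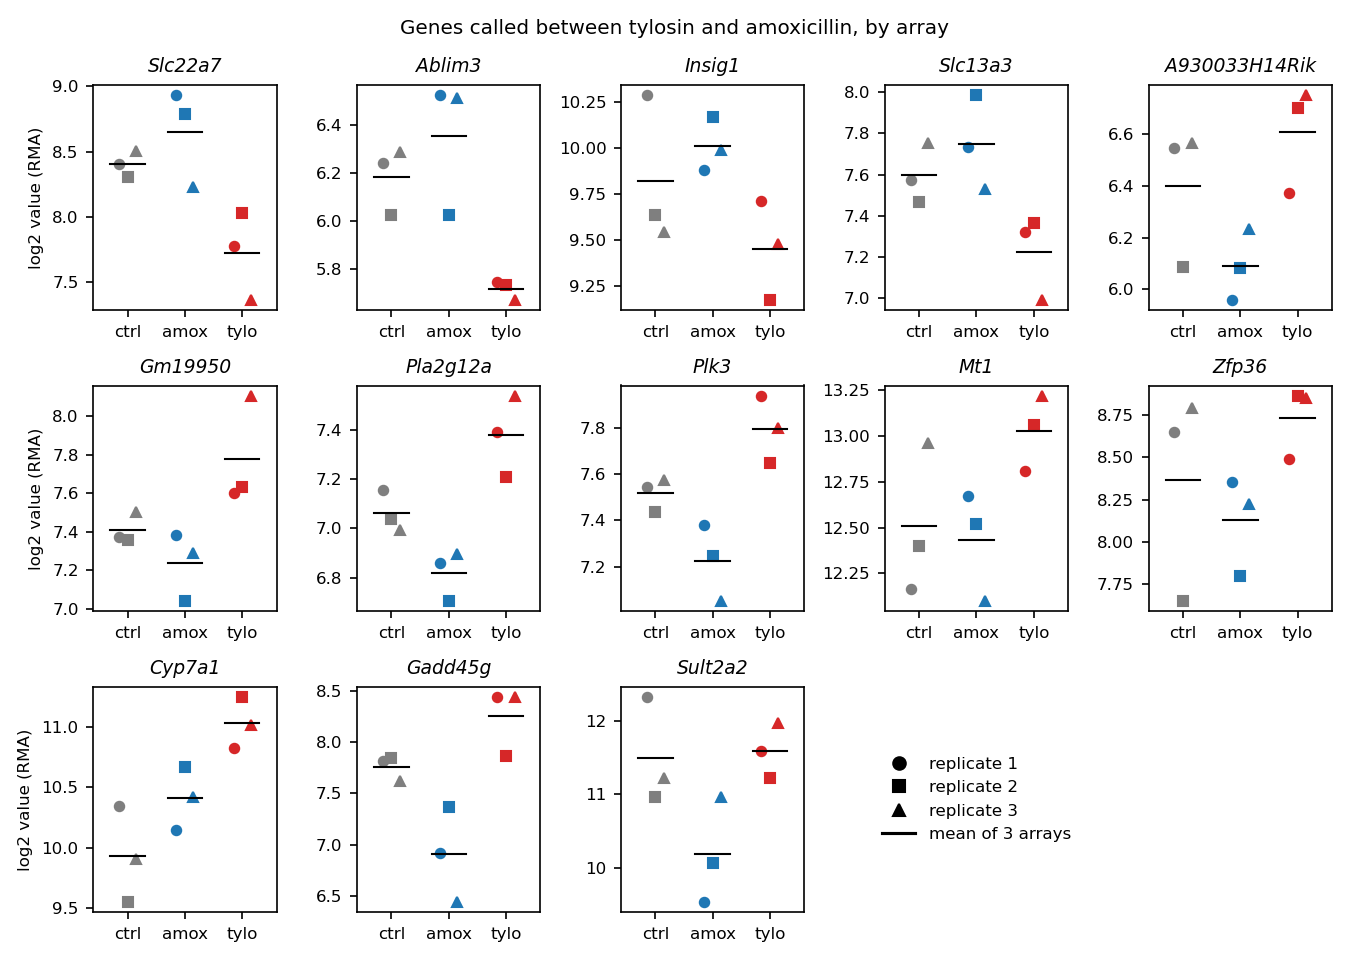
Log2 values of the 13 called genes (vertical axis, scaled for each gene) in control, amoxicillin and tylosin arrays (horizontal axis), with symbols for the replicate number and a line at the mean of 3 arrays. In each panel the 3 tylosin arrays lie on 1 side of the 3 amoxicillin arrays, while the controls lie on either side or between.

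Genes of cholesterol synthesis were lower with tylosin in 18 of 19 cases, the list with the lowest median. The list held 25 genes, of which 20 were measured and 19 kept. Their median difference was -0.56, against 0.01 over all genes, and Insig1 was the single member called; 9 of 19 had an unadjusted p under 0.05, against 234 of 7524. The tylosin values lay wholly below the amoxicillin values in 3 members (Insig1, Sc5d and Srebf2) and above in none, against 2.5% wholly below and 3.89% wholly above over all genes. In Sc5d the lowest amoxicillin and the highest tylosin value were both 11.20, a near tie, and in Srebf2 they were 6.83 and 6.80. Of the 10 genes that were lower by over 1, 5 were enzymes of this pathway, a count made after the values were seen: Sqle, Fdps, Idi1, Cyp51 and Msmo1.

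These differences were wide in size and wide in spread. Sqle, squalene epoxidase, was at 7.56, 8.68 and 9.32 with amoxicillin and at 7.85, 6.95 and 6.79 with tylosin, a difference of -1.32 ± 0.45 (SE). Amoxicillin replicate 1 and tylosin replicate 1 overlapped, and the controls ran from 8.96 through 7.99 to 6.79. Fdps, which makes farnesyl pyrophosphate, was at 8.47, 9.05 and 10.18 with amoxicillin and at 8.47, 7.93 and 7.54 with tylosin, a difference of -1.26 ± 0.42 (SE). Idi1, the isomerase of isopentenyl pyrophosphate, was at 9.44, 10.35 and 10.90 with amoxicillin and at 9.59, 8.95 and 8.46 with tylosin. In each of these enzymes amoxicillin replicate 1 fell among or next to the tylosin arrays. The difference of Idi1 was -1.23 ± 0.40 (SE), that of Cyp51, a sterol demethylase, -1.11, that of Msmo1, a methylsterol oxidase, -1.05, and that of Hmgcs1, which makes HMG-CoA and was named for its promoter after its values were seen, -0.86. Sc5d, a late sterol desaturase, differed by -0.31, from 11.20 to 11.56 with amoxicillin and 10.87 to 11.20 with tylosin. Srebf2, the transcription factor of the pathway, differed by -0.21, with tylosin arrays at 6.47 to 6.80 against 6.83 to 6.95.

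The list as a whole varied from array to array within every group. Its median deviation from the mean of the 6 antibiotic arrays was -0.17, 0.29 and 0.82 in the amoxicillin arrays and -0.01, -0.31 and -0.79 in the tylosin arrays. Control arrays were at 0.52, -0.08 and -0.58, a narrower span, with amoxicillin replicate 3 above it and tylosin replicate 3 below it. In 14 of 19 genes both group means lay within the range of the controls, against 2098 of all 7524 genes. Tylosin replicate 3 was the lowest of the 6 arrays in 16 of 19 genes, against 31.3% of all genes. Amoxicillin replicate 3 was the highest in 16, against 1020 of all 7524 genes. Tylosin replicate 1 was above amoxicillin replicate 1 in 15, against 4347 of all 7524 genes. The list median was -0.43 without tylosin replicate 3, -0.39 without amoxicillin replicate 3 and -0.70 without amoxicillin replicate 1 and tylosin replicate 2.

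**Figure D4:**
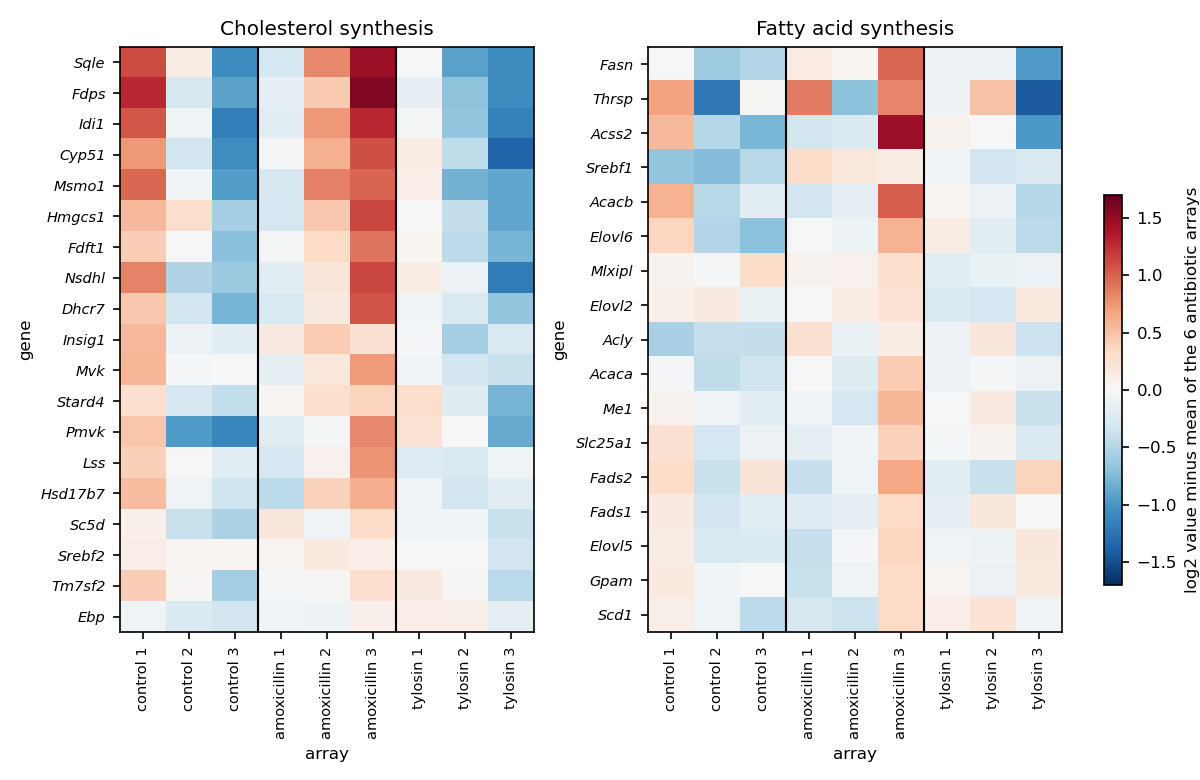
Each cell gives a gene's log2 value in 1 array minus its mean over the 6 antibiotic arrays, for the 19 cholesterol synthesis genes (left) and the 17 fatty acid synthesis genes (right); columns are arrays and black lines part the groups. Amoxicillin 3 is red and tylosin 3 blue down most of the cholesterol panel, and control 1 and control 3 differ from each other in the same way.

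The proximal promoters of 2 of these enzymes and of 2 other genes described here are shown for the letters they carry. Hmgcs1 is shown for a sterol regulatory element, and Idi1 for the CCAAT boxes it has in common with the other cholesterol genes. Hspa1b is shown for part of a heat shock element. Gadd45g, the called gene that kept its call without each single array, is shown for a TATA box. The sequences are from RefSeq on GRCm38.p6, 150 bases upstream of each start, 5′ to 3′ on the gene's strand: Hmgcs1 at chr13:119690201-119690350 (+), Idi1 at chr13:8885456-8885605 (+), Gadd45g at chr13:51846525-51846674 (+) and Hspa1b at chr17:34959239-34959388 (-). Capitals mark TCACNCCAC (a sterol regulatory element) and CCAAT in Hmgcs1, CCAAT alone in Idi1, where TCACNCCAC had no match, TATAAA in Gadd45g, and GAANNTTC (part of a heat shock element) and CCAAT in Hspa1b, each searched on both strands. Gadd45g was marked for TATAAA only, and the CCAAT that it also holds is left in lower case.
Hmgcs1: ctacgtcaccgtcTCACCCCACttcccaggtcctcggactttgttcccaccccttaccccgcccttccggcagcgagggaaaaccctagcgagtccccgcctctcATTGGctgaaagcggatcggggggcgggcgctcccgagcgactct
Idi1: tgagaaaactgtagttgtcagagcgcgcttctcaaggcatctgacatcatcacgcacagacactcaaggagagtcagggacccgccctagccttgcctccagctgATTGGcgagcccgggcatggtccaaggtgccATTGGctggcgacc
Gadd45g: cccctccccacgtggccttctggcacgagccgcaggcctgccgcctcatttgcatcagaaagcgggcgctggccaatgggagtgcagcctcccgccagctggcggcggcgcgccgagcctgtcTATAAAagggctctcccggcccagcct
Hspa1b: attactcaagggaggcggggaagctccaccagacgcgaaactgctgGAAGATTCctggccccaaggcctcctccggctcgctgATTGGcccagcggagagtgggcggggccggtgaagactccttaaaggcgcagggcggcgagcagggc

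In windows of 250 bases upstream, CCAAT on either strand stood in 33.8% of all 32851 windows. Of the 19 cholesterol synthesis genes 15 had a promoter entry, with 18 windows between them, of which 15 (83.3%) held CCAAT. Counted by gene, 15 of these 15 held it in at least 1 window, against 10133 of all 27025 genes. TCACNCCAC stood in 1.05% of all promoters and, among these 15 genes, in Hmgcs1. TATAAA stood in 12.4% of all promoters and GAANNTTC in 6.69%. In the 23 windows of the cytosolic heat shock list, GAANNTTC stood in 26.1% and CCAAT in 34.8%. A match is a description of letters and not of a bound factor.

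Fatty acid synthesis genes differed less. Of 17 genes kept, 13 were lower with tylosin and none was called, with a median of -0.18 that turned to 0.03 without amoxicillin replicate 3. Fasn, fatty acid synthase, was at 9.06, 8.96 and 9.91 with amoxicillin and at 8.84, 8.84 and 7.96 with tylosin. The groups did not overlap, but 1 array of each stood apart from its own group, and the difference of -0.77 ± 0.31 (SE) was not called. Srebf1, the factor that drives fatty acid synthesis, had a smaller difference and a tighter spread: 9.36, 9.23 and 9.18 with amoxicillin and 9.01, 8.72 and 8.81 with tylosin, or -0.41 ± 0.10 (SE). Both groups were above all 3 controls, which were at 8.31 to 8.58. It missed the call on size, not on p. Mlxipl, the carbohydrate-sensing factor ChREBP, was also wholly lower, at -0.28. Thrsp, a regulator of lipogenesis, differed by -0.67 with overlapping groups and by -0.14 without tylosin replicate 3.

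Genes that store and burn fat leaned the other way without a call. Of 18 lipid droplet and triglyceride genes, 15 were higher with tylosin (median 0.18), and of 22 genes of fatty acid oxidation, 20 were (median 0.13), against 53.8% of all genes. No gene of either list was called. Vldlr, a lipoprotein receptor, differed by 0.63 and Cd36, a fatty acid carrier, by 0.53, both with overlapping groups. Vldlr was at 0.37 without tylosin replicate 1 and 0.38 without amoxicillin replicate 2, and Cd36 at 0.27 without amoxicillin replicate 2 and 0.89 without amoxicillin replicate 3. Dgat1, which completes triglyceride synthesis, was at 7.49 to 7.65 with amoxicillin and 7.73 to 7.79 with tylosin. Among oxidation genes Acadm, a dehydrogenase of medium-chain fatty acids, was wholly above, by 0.17. Fgf21, a fasting hormone, differed by 0.66, with 8.68 in tylosin replicate 3 against 7.09 and 7.43 in the other tylosin arrays, and by 0.18 without that array. Amoxicillin replicate 1 was the lowest of the 6 arrays in 18 of the 22 oxidation genes, against 981 of all 7524 genes. Without that array the median of the oxidation genes was 0.00. The lipid droplet median was 0.07 without amoxicillin replicate 1 and 0.07 without tylosin replicate 3.

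In bile acid synthesis and transport, Cyp7a1 was the only gene called of 20. The median was -0.05, with 8 genes higher and 12 lower. Abcb11, the bile salt export pump, was at 11.06, 11.04 and 11.11 with amoxicillin and at 10.82, 10.71 and 10.84 with tylosin. The groups and the controls (10.93 to 11.02) were all apart from each other, and the difference was -0.28 ± 0.08 (SE). Hsd3b7, an early enzyme of the pathway, was wholly lower by 0.28, with tylosin at 12.05 to 12.43 and amoxicillin at 12.53 to 12.56. Slco1a4, a carrier of organic anions, was wholly higher, by 0.26, and Fgfr4, the liver receptor for FGF19 family hormones, was wholly lower, at -0.14. Slco1a1, a related uptake carrier, had the lowest difference of all genes kept, -2.02 ± 0.83 (SE). Its values were 8.42, 8.82 and 6.10 with amoxicillin and 5.97, 6.93 and 4.37 with tylosin, so amoxicillin replicate 3 lay among the tylosin arrays. Its difference lay between -2.86 and -1.33 without single arrays.

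Genes of conjugation and export of foreign compounds divided in direction. Of 10 sulfotransferases 7 were lower with tylosin, with a median of -0.17, while Sult2a2 was called higher. Tylosin replicate 3 was the lowest array in 6 of the 10, and without it 6 genes were higher, 4 were lower and the median was 0.04. Sult3a1, a sulfotransferase of amines, was at 10.77, 11.42 and 11.28 with amoxicillin and at 10.61, 10.68 and 8.77 with tylosin. The difference of -1.13 came largely from tylosin replicate 3 and was -0.51 without it. Sult5a1 differed by -0.71 with overlapping groups. Of 13 organic ion and ABC transporters, Slc22a7 was called and 2 further members of its family, Slc22a30 and Slc22a27, were wholly lower, at -0.39 and -0.20. Over all genes 2.5% were wholly lower. Slc22a5, the carnitine carrier, differed by 0.42. Tylosin replicate 3 was the lowest array in 8 of the 13. Without it the list median moved from -0.10 to -0.0002, Slc22a30 to -0.20 and Slc22a27 to -0.11. Of 25 cytochrome P450 genes of families 1 to 3, 21 were lower with tylosin, with a median of -0.13 and none called. Cyp3a16, Cyp2c54 and Cyp3a44 differed by -0.86, -0.86 and -0.78, each with overlapping groups, and Cyp2d10 was wholly lower, by 0.21. Without single arrays the first 3 ran from -1.33 to -0.58, -1.39 to -0.51 and -1.12 to -0.41, each nearest 0 without tylosin replicate 3. Members of these P450 families are similar in sequence, so a probe set can take signal from more than 1. Tylosin replicate 3 was the lowest of the 6 arrays in 17 of the 25, and the median was -0.06 without it. The lists of UDP-glucuronosyltransferases (9 genes), glutathione transferases (18) and xenobiotic sensors (5) had medians of -0.03, 0.00 and -0.07 and no call.

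Immediate early genes, which cells switch on within minutes of a stimulus, had the highest median of the lists. Of 14 genes kept 13 were higher with tylosin, 1 was called (Zfp36), and the median was 0.44. Dusp1, a phosphatase that turns off MAP kinases, was at 9.20, 8.51 and 8.75 with amoxicillin and at 9.38, 9.77 and 9.29 with tylosin, a difference of 0.66 ± 0.20 (SE), just short of a call. Myc, a growth-promoting transcription factor, was at 5.65, 6.32 and 5.64 with amoxicillin and at 6.92, 6.10 and 7.15 with tylosin, a difference of 0.85 ± 0.29 (SE). Tylosin replicate 2 overlapped the amoxicillin arrays. Egr1 and Btg2, both quickly induced, differed by 0.73 and 0.73. Without tylosin replicate 3 they differed by -0.07 and 0.30, and a second probe set of Btg2 differed by 0.15. Egr1 was at 9.83 in tylosin replicate 3 against 6.98 to 7.75 in the other 5 antibiotic arrays, and also at 9.65 in control replicate 3. Tylosin replicate 3 was the highest of the 6 arrays in 9 of the 14 genes, against 21.2% of all genes, and the median was 0.20 without it. Of 9 GADD45 and p53 target genes 8 were higher, with Gadd45g called and its relative Gadd45b at 0.57. The groups of Gadd45b overlapped, its difference was 0.34 without tylosin replicate 3, and its dimmer probe sets differed by 0.49 and 0.11.

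Heat shock proteins of the cytosol, which refold damaged proteins, were higher with tylosin in 15 of 18 cases, with a median of 0.14 and none called. In 5 of the 18 the groups did not overlap, all with tylosin above, against 3.89% wholly above over all genes. Tylosin replicate 3 was the highest of the 6 arrays in 12 of the 18, against 21.2% of all genes, and the median was 0.09 without it and 0.26 without tylosin replicate 1. Hspa1b, the inducible HSP70, was at 9.74, 9.66 and 9.66 with amoxicillin and at 9.85, 11.26 and 11.74 with tylosin, while controls were at 11.25, 11.28 and 11.29. Thus 2 tylosin arrays stood at the control level and 1 near the amoxicillin level. The difference was 1.26 ± 0.42 (SE). Without tylosin replicate 1 it was 1.81 and passed the call. Of the 2 dimmer probe sets of Hspa1b, 1 was called, at 1.52, and the other was not, at 1.36. With all 9 arrays in the fit, Hspa1b and Bag3 were both called. Hspa1a is a near-identical neighbour of Hspa1b: their upstream windows share 247 of 250 bases, and signal from both genes may fall on 1 probe set. Bag3, an HSP70 co-chaperone, was at 8.58, 8.29 and 8.39 with amoxicillin and at 8.61, 9.05 and 9.19 with tylosin, a difference of 0.53 ± 0.16 (SE). Dnajb4, another co-chaperone, was wholly higher by 0.45 ± 0.11 (SE), with amoxicillin at 8.50 to 8.85 and tylosin at 9.04 to 9.25, and missed the call on size. Hspa4l, an HSP110 relative, was only just wholly higher, by 0.21. In this gene, counted among the 5, amoxicillin replicate 1 and tylosin replicate 1 were both at 6.61. A probe set of nearly the same brightness differed by 0.08 with overlapping groups, and a dimmer one was called, at 0.58. Hspb1, the small heat shock protein HSP27 that the study names, was at 8.60, 8.91 and 8.18 with amoxicillin and at 8.28, 8.55 and 8.58 with tylosin, with overlapping groups and a difference of -0.09 ± 0.18 (SE). Both groups were under all 3 controls, which were at 9.38 to 9.88. The dimmer probe set of Hspb1 differed by -0.31, also with overlapping groups and without a call.

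Clock genes change with the time of day, and the hour of collection is not in the labels. Of 13 genes 8 were higher and 5 lower with tylosin, none was called, and 5 had an unadjusted p under 0.05. Dbp, a clock output factor, had the highest difference of all genes kept, 1.44 ± 0.48 (SE). It was at 7.13, 5.21 and 6.14 with amoxicillin and at 8.02, 6.95 and 7.83 with tylosin, and the controls spanned more than either group, at 8.89, 5.24 and 7.89. Tef, of the same family, was wholly higher by 0.45, and Noct and Usp2, rhythmic in liver, differed by 0.81 and 0.70. Arntl, the core clock activator BMAL1, and Nfil3, a repressor at Dbp target sites, lay in the other direction, at -0.56 and -0.52; these 2 were named after their values were seen. Control replicate 2 and amoxicillin replicate 2 held the lowest Dbp and the highest Arntl values (7.57 and 7.73).

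Acute phase genes showed no common direction, with 10 of 21 higher, a median of 0.00 and none called. Orm2, an alpha-1-acid glycoprotein, was at 6.06, 5.96 and 6.12 with amoxicillin and at 7.04, 6.31 and 7.70 with tylosin, a difference of 0.97 ± 0.30 (SE). The serum amyloid genes Saa1, Saa2 and Saa3 differed by 1.05, 1.09 and 1.26. Their high values were in tylosin replicate 3, at 11.01, 9.32 and 9.79, and in control replicate 3, at 11.55, 10.19 and 7.98. Without tylosin replicate 3 the differences were 0.24, 0.46 and 0.33. Ighm, the heavy chain of IgM, was likewise at 10.49 in tylosin replicate 3 and at 7.07 to 8.17 in the other 8 arrays. Among 9 genes of bacterial product sensing, 8 were higher, with a median of 0.14, and none was called. Without tylosin replicate 3, the highest array in 5 of the 9, 5 were higher and the median was 0.02. Cd14, a co-receptor of lipopolysaccharide, was at 6.71, 6.71 and 6.19 with amoxicillin and at 7.43, 6.81 and 7.35 with tylosin, a difference of 0.66 ± 0.20 (SE). Myd88, the adaptor of Toll-like receptors, was wholly higher by 0.20. Tylosin replicate 3 also held the highest Marco value, as given above. In control replicate 3, with the highest Saa1 and Saa2 values, Marco was at 7.14. In tylosin replicate 1, with the highest Cd14 value, Marco was at 6.24. The part of the macrophage markers in these values was not tested.

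In the list of gluconeogenesis and glucocorticoid response genes, Mt1 was called and its neighbour Mt2 was wholly higher, by 0.41, while 8 of the 16 genes were higher and 8 lower. Other genes with a difference over 1 were named after their values were seen. Serpina12, the adipokine vaspin, was at 9.10, 9.95 and 10.09 with amoxicillin and at 8.29, 9.004 and 6.14 with tylosin, a difference of -1.90 ± 0.67 (SE). The groups did not overlap, though by less than 0.1 in the closest pair, and the difference was -1.07 without tylosin replicate 3. Rdh11, a retinol dehydrogenase, was wholly lower at -1.04, and Dct, known from melanin synthesis, differed by -1.04 with overlapping groups. Without tylosin replicate 3 the difference of Dct was -0.41, and without amoxicillin replicate 3 that of Rdh11 was -0.69.

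**Figure D5:**
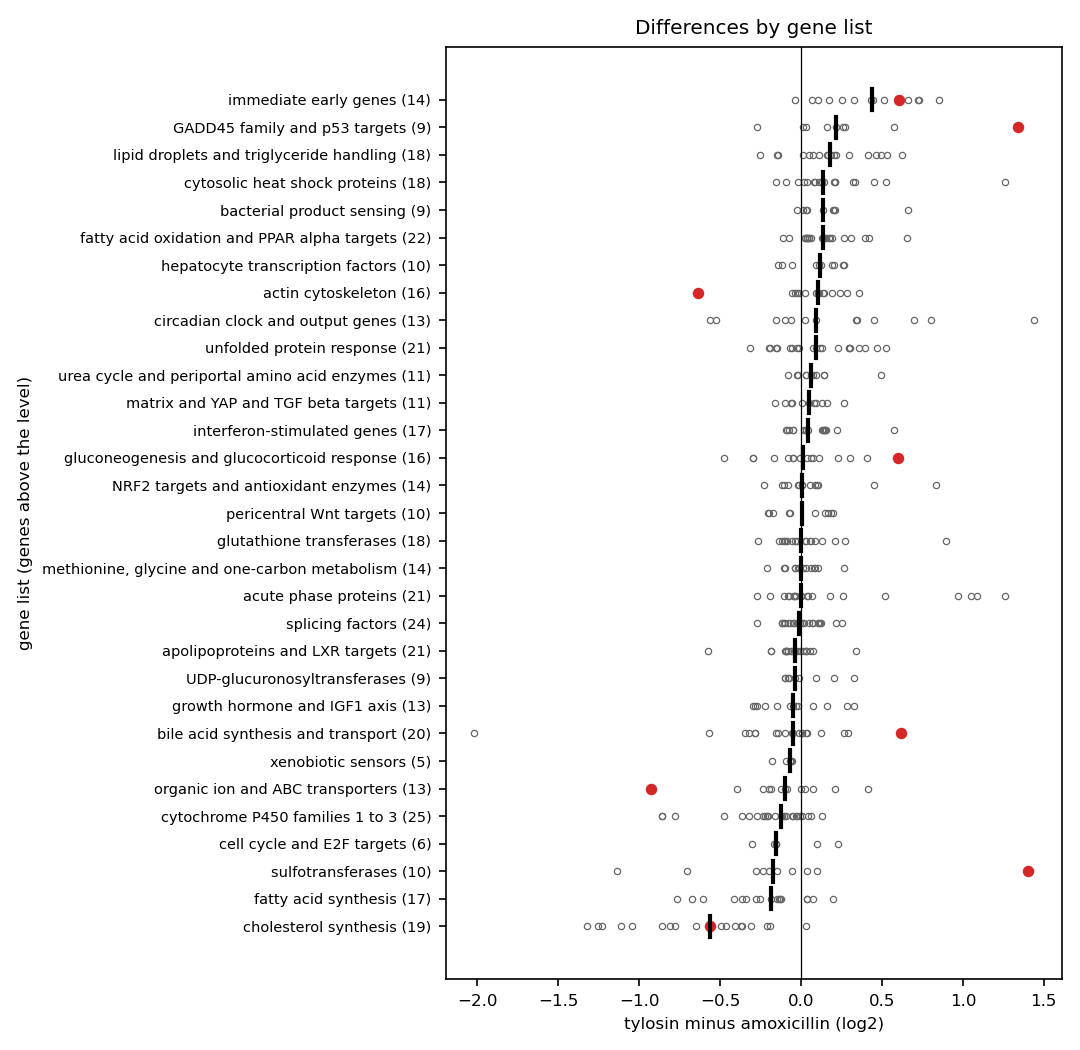
Differences on the log2 scale (horizontal axis) for the genes of 31 lists (vertical axis, number of genes kept in brackets), with 1 circle per gene, called genes in red and a black bar at the list's median. Cholesterol synthesis has the lowest median, -0.56, and immediate early genes the highest, 0.44; called genes are single points in their lists.

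Many lists stayed near 0. Apolipoproteins and LXR targets (21 genes) had a median of -0.03, the growth hormone and IGF1 axis (13) -0.05, interferon-stimulated genes (17) 0.04, NRF2 targets (14) 0.01, urea cycle enzymes (11) 0.06, one-carbon metabolism (14) 0.00, pericentral Wnt targets (10) 0.01 and splicing factors (24) -0.01. None of their genes was called. Genes of the matrix and of YAP and TGF beta (11, none called) had a median of 0.05 that turned to -0.18 without tylosin replicate 3, the highest array in 7 of them, and was 0.19 without tylosin replicate 1. No gene was called either in the unfolded protein response (21 genes, median 0.09), hepatocyte transcription factors (10 genes, median 0.12) and the cell cycle (6 genes, median -0.15). In the actin cytoskeleton (16 genes, median 0.10), Ablim3 was called lower while 11 genes were higher. Tylosin replicate 3 was the highest array in 10 of the 16, and without it 7 were higher, 9 were lower and the median was -0.02.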

How the data were processed

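Liver RNA from 9 samples was hybridized to Affymetrix mouse arrays, 1 array each, and the 3 amoxicillin and 3 tylosin arrays were compared. The authors deposited log2 values made with RMA in the affy package, with versions not given in the sources used here, and the raw intensities were not used here. RMA fits probe sets over arrays jointly and draws dim values together, which narrows differences at low levels.

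Of 45101 probe sets, 64 manufacturer's controls were left out. A single symbol was given to 34945, several to 932, and 9160 were unnamed here. Differences were tested over all 45037 with limma 3.58.1 in R 4.3.3, with Benjamini-Hochberg adjustment. Calls used an unadjusted p under 0.01 and a log2 difference over 0.5. The fit held the 6 antibiotic arrays. The code was tested on simulated data. The lists and genes were chosen with earlier results of these data known. Named were the called genes, up to 4 further genes of a described list (non-overlapping groups first, then by size) and Hspb1; others are marked. Symbols were matched as written or through a synonym. Same-numbered arrays of both groups did not deviate together (correlations -0.09, -0.22 and -0.07), so numbers were not treated as pairs.

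Arrays correlated at 0.988 to 0.996 and none was a copy of another. Their number, 3 per group, limits the precision. The difference between the 3' and 5' probe sets of Actb, a sign of RNA quality, was 1.39 to 1.57 with amoxicillin and 1.21 to 1.73 with tylosin. Alternatives were another fit with all 9 arrays, other thresholds, level filters, probe set choices, scalings and variance models, a replicate block and leaving out arrays. Figures were drawn with matplotlib 3.10.9 in Python 3.11.15.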

Additional observations from a re-analysis of the deposited data

How the results depend on the processing

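The counts of called genes, 9 higher and 4 lower with tylosin, moved most when arrays were left out. Without single arrays they ran from 5 to 25 higher and from 2 to 21 lower, the extremes being 5 and 2 without amoxicillin replicate 2, 25 higher without amoxicillin replicate 1, and 21 lower without tylosin replicate 1. Of the 13 genes, 3 were still called without tylosin replicate 3 and 9 without tylosin replicate 1. With neither amoxicillin replicate 1 nor tylosin replicate 2, 19 were higher. At an adjusted p under 0.05 there were 0 higher and 0 lower, at a difference over 1 there were 2 and 0, and at a mean level over 8 there were 4 and 2. A level over 4, and no filter on level, each gave 7 lower. With the replicate number as a block (replicate block), 11 genes were higher and 13 lower, 10 of them among the 13; same-numbered arrays did not deviate together, and the cause was not tested. With all 9 arrays in the fit, 11 were higher and 3 lower, and 9 of the 13 remained called. The other scalings, probe set choices and variance models stayed within 1.5 times both counts. Of the named genes that were not called, Egr1 turned to -0.072 without tylosin replicate 3, with 1.26 as its highest value without a single array. Hspb1 turned to 0.082 without amoxicillin replicate 2 and to 0.0031 without tylosin replicate 1, with -0.28 as its lowest value. Fgfr4 turned to 0.031 with the mean of all its probe sets.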
